A study of Mus musculus with 6 samples.

Results

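The superoxide and peroxide defence enzymes were examined here in brown adipose tissue, a thermogenic fat. They were 10 genes of the 24062 symbols in a table of gene counts, chosen by name with earlier results of these data known: Sod1, Sod2, Sod3, Cat, Gpx1, Gpx4, Prdx3, Prdx5, Txn2 and Txnrd2. All 10 had a row and all passed the filter on low counts, which kept 13300 genes. Each had at least 716 reads in every library. The tissue came from male C57BL/6 mice aged 12 weeks, 3 labelled FAM195A knockout and 3 labelled FAM195A heterozygous, so the mice set against the knockouts carry 1 disrupted copy as well. FAM195A is described in the series as a stress granule protein that binds RNA and is needed for cold-induced thermogenesis. The sources used here do not give the way the gene was disrupted, the substrain or the housing temperature.

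Superoxide is formed when electrons leak from the respiratory chain and from oxidases. Superoxide dismutases turn it into hydrogen peroxide, which catalase breaks down in peroxisomes and which glutathione peroxidases and peroxiredoxins reduce elsewhere. In the mitochondrial matrix the peroxiredoxins draw their electrons from thioredoxin 2, which thioredoxin reductase 2 recharges with NADPH. Brown fat is rich in mitochondria, which makes the matrix branch of this system prominent there. Sod2, Prdx3, Prdx5, Txn2 and Txnrd2 were taken as the mitochondrial members and Sod1, Gpx1 and Gpx4 as the cytosolic ones. Cat is peroxisomal and Sod3 is secreted. These classes are not exclusive: Prdx5 also works in the cytosol and peroxisomes, and Gpx1 and Gpx4 also have mitochondrial forms, which a count per gene does not separate.

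Among the 10 members, 3 are selenoproteins, made by reading an in-frame UGA codon as selenocysteine, the residue at their active site. The coding stretches around that codon are shown because this feature is shared by members that lay on opposite sides of the comparison below. They come from GENCODE release M21 transcripts on GRCm38, run 5′ to 3′ in frame on the plus strand, and have the selenocysteine codon in capitals.
Txnrd2: gagcctactgtgactggttgcTGAggctaa
Gpx1: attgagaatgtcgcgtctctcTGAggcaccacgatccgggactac
Gpx4: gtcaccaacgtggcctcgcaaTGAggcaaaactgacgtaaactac
In Txnrd2 the codon is number 526 of 527 and the printed stretch ends with the stop codon (chr16:18477772-18477774). In Gpx1 it is number 47 of 201 (chr9:108339451-108339453), and in Gpx4 number 73 of 197, counted in the long form of the protein (chr10:80054737-80054739).

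For the 2 intracellular dismutases and Prdx3, the 150 bases before the RefSeq start site on GRCm38.p6 are shown as well, as the pair of dismutases on either side of the mitochondrial and cytosolic contrast and the mitochondrial member that differed most. Capitals mark matches to the motifs searched.
Prdx3: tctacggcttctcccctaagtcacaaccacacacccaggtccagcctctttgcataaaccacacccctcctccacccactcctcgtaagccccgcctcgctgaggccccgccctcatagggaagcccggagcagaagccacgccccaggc
Sod2: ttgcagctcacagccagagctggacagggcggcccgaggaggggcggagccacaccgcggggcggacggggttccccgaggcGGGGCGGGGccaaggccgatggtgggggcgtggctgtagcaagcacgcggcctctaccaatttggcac
Sod1: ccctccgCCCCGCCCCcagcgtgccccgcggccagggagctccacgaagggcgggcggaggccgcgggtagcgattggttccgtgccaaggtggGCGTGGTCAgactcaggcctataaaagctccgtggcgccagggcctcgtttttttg
They lie at chr19:60874539-60874688 on the minus strand for Prdx3, at chr17:13007689-13007838 on the plus strand for Sod2 and at chr16:90220612-90220761 on the plus strand for Sod1. All 3 are rich in G and C, at 64.0%, 72.7% and 70.0%. GENCODE exons cover 18, 22 and 8 of the 150 bases, in that order. The Sod2 stretch lies wholly within the span that GENCODE gives for Sod2.

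The motif search covered 300 bases around each start site, 250 before and 50 after, on both strands, in 12 windows of 9 members with a RefSeq entry. The antioxidant response element core TGACNNNGC was found in Sod1 alone, on the minus strand 56 bases before the start site, and 12.4% of all 32851 promoters hold it. The GC box GGGGCGGGG was found in Sod1, on the minus strand, and Sod2, on the plus strand, and 11.4% of all promoters hold it. No window held TCAAGGTCA, the element of the estrogen-related receptors (0.423% of all promoters), the palindromic NRF1 site (0.971%), or the E box CACGTG (7.15%). A match is a description of letters, and no match says only that these letters are not in the window.

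In the libraries, reads in genes came to between 22418031 and 25084627 in the knockout-labelled group and between 18781401 and 20471963 in the heterozygous-labelled group. Genes held 51.0% to 58.3% of all reads in the knockout-labelled libraries and 43.9% to 48.4% in the heterozygous-labelled ones. The targeted transcript, Fam195a, averaged 71.3 ± 18.0 CPM (read counts scaled for depth by TMM) in the knockout-labelled libraries and 80.8 ± 19.1 CPM in the heterozygous-labelled ones (SD, n = 3 each), with overlapping groups, so it does not bear out the labels. Summed skeletal muscle markers (26 of 26 detected) stood at 7918, 4697 and 4512 CPM in knockout-labelled 1, 2 and 3, and at 12645, 28926 and 37288 CPM in heterozygous-labelled 1, 2 and 3. Brown adipocyte markers, Ucp1 included, were present throughout, at 8009 to 12782 CPM in knockout-labelled and 8088 to 10639 CPM in heterozygous-labelled libraries, and 1 of the 12 rose, the fatty acid elongase Elovl3 (log2 fold change 1.03, edgeR adjusted p = 0.0418), a call lost without knockout-labelled 1 or 2 or heterozygous-labelled 2 and with the muscle score, where no gene rose. Of these 12, 4 lay above 0 in log2 fold change and 8 below. In 2, all knockout-labelled libraries were above all others (8.11% of all genes). Ucp1 had 4390, 5693 and 1647 CPM in the knockout-labelled libraries and 4898, 5290 and 2963 CPM in the heterozygous-labelled ones. Adipocyte markers came to 16738 to 21462 CPM in knockout-labelled and 15981 to 18903 CPM in heterozygous-labelled libraries. In 2 of these 8 all knockout-labelled libraries were above (8.11% of all genes). Macrophage markers came to 167 to 289 CPM in knockout-labelled and 115 to 280 CPM in heterozygous-labelled libraries, and endothelial markers to 836 to 881 CPM in knockout-labelled and 705 to 890 CPM in heterozygous-labelled ones. Library titles start with RF (replicates 1 and 2 of each group) or RE (replicate 3 of each group), a prefix the labels do not explain. Over the whole table, 0.586% of genes passed an adjusted p of 0.05 by edgeR, 0.0526% higher and 0.534% lower in the knockout-labelled libraries, and 12.1% had an unadjusted p under 0.05.

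No defence enzyme passed the adjusted threshold, but in 5 of the 10 the groups did not overlap, 3 with the knockout-labelled libraries above and 2 with them below. Among all genes tested this held for 18.0%, 8.11% above and 9.89% below. Since the members were chosen with earlier results of these data known, shares of all genes set beside their counts are no test of them. Transcripts of the mitochondrial peroxiredoxin Prdx3 and the mitochondrial reductase Txnrd2 were at 60.3% and 67.3% of the heterozygous-labelled level. Those of the cytosolic members Gpx4, Gpx1 and Sod1 were at 153%, 137% and 128%. By edgeR's quasi-likelihood test over 13300 genes with Benjamini-Hochberg adjustment, 0 of 10 were called, and 5 of 10 had an unadjusted p under 0.05 against 12.1% of all genes. DESeq2 called 3 of the 10, Prdx3, Txnrd2 and Gpx4, where it called 5.80% of all genes. With the title prefix as covariate edgeR called Prdx3 and Txnrd2, where it called 2.34%. limma-voom called Txnrd2 alone, where it called 1.46%. The median log2 fold change was -0.22 over the mitochondrial members and 0.45 over the cytosolic ones, beside 0.020 over all genes tested. In bulk tissue, fewer cells of a type and less RNA per cell cannot be told apart.

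**Figure D1:**
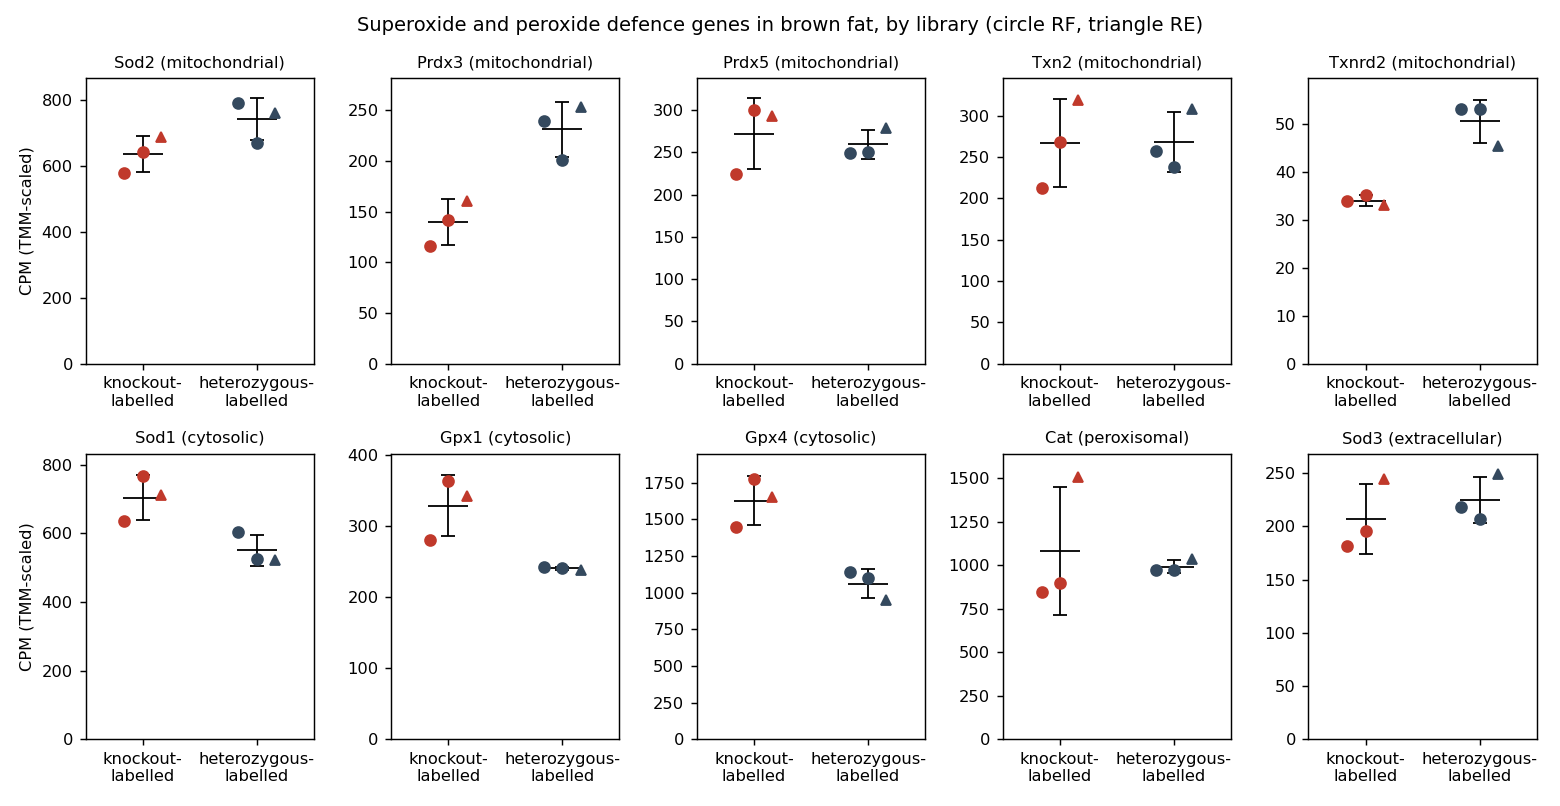
TMM-scaled CPM (vertical axis, from 0) of each of the 10 genes in the 3 knockout-labelled libraries (red) and the 3 heterozygous-labelled libraries (dark blue), with circles for RF titles, triangles for RE titles, and the mean with its SD as bars. Prdx3 and Txnrd2 lie lower in all 3 knockout-labelled libraries, Sod1, Gpx1 and Gpx4 lie higher in all 3, and the other 5 overlap.

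Sod2, the manganese dismutase of the matrix, had 579, 640 and 687 CPM in knockout-labelled 1, 2 and 3, and 791, 669 and 761 CPM in heterozygous-labelled 1, 2 and 3. The groups overlapped, because knockout-labelled 3 lay above heterozygous-labelled 2. Its log2 fold change was -0.22 (SE 0.146, 95% interval -0.56 to 0.12, edgeR adjusted p = 0.691). Sod2 lies on chromosome 17 from 13006846 to 13040063 (GRCm38, plus strand), the chromosome that also holds Fam195a, at 25863698 to 25868764.

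Prdx3 encodes the main matrix peroxiredoxin, which removes most hydrogen peroxide there. It had 116, 142 and 160 CPM in the knockout-labelled libraries and 239, 201 and 253 CPM in the heterozygous-labelled ones. Every knockout-labelled library was below every heterozygous-labelled one, and the highest knockout-labelled value was the RE-titled one. The log2 fold change of -0.73 was the lowest of the 10 (SE 0.166, 95% interval -1.12 to -0.34, edgeR adjusted p = 0.0873). For Prdx3 the adjusted p was 0.0317 when edgeR's model also held the prefix, 0.00479 by DESeq2 and 0.0588 by limma-voom, and in edgeR it ran from 0.107 to 0.281 with single libraries left out. It was at -0.77 (log2 fold change) in the RF-titled libraries and the log2 ratio -0.66 in the RE-titled pair, which has no test. Prdx3 lies on chromosome 19 from 60864051 to 60874556 (minus strand).

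Prdx5, a peroxiredoxin of mitochondria, peroxisomes and cytosol, differed from Prdx3 in having overlapping groups. It had 224, 300 and 292 CPM in the knockout-labelled libraries and 249, 250 and 279 CPM in the heterozygous-labelled ones. Its log2 fold change was 0.068, with a 95% interval of -0.29 to 0.43 (edgeR adjusted p = 0.947). Exons of Prdx5 and of Trmt112, on the other strand, share 409 bases, so reads there cannot be told apart unless counting used strand. There were 0.513 ± 0.0371 Prdx3 reads per Prdx5 read in the knockout-labelled libraries and 0.891 ± 0.0794 in the heterozygous-labelled ones (SD, n = 3 each), without overlap.

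Txn2, the matrix thioredoxin that reduces both peroxiredoxins, had 213, 269 and 319 CPM in the knockout-labelled libraries and 257, 238 and 308 CPM in the heterozygous-labelled ones. The groups covered nearly the same range. Txn2 had a log2 fold change of -0.00478 (95% interval -0.44 to 0.43, edgeR adjusted p = 0.995). The RE-titled library was the highest of its group in both genotypes, as it was for Prdx3, Sod3 and Cat.

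Txnrd2, the selenoprotein that recharges Txn2, had the lowest level per transcript length and, among the knockout-labelled libraries, the smallest relative spread of the 10. It had 33.8, 35.2 and 33.0 CPM in the knockout-labelled libraries and 53.2, 53.0 and 45.4 CPM in the heterozygous-labelled ones. All knockout-labelled values were below all others, and they differed among themselves by little (coefficient of variation 3.14%). Its log2 fold change was -0.57 (SE 0.122, 95% interval -0.86 to -0.29, edgeR adjusted p = 0.0804). For Txnrd2 the adjusted p was 0.0317 with the prefix in edgeR's model, 0.00422 by DESeq2 and 0.0467 by limma-voom, and in edgeR it ran from 0.165 to 0.275 with single libraries left out. Within the RF-titled libraries the log2 fold change was -0.62, and the log2 ratio in the RE-titled pair was -0.45. Txnrd2 lies on chromosome 16 from 18426384 to 18479073 (plus strand).

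Sod1, the copper-zinc dismutase of the cytosol and the intermembrane space, had 635, 766 and 712 CPM in the knockout-labelled libraries and 603, 526 and 522 CPM in the heterozygous-labelled ones. The groups did not overlap, and knockout-labelled 1 came closest to heterozygous-labelled 1. This gave a log2 fold change of 0.36 (SE 0.146, 95% interval 0.014 to 0.70, edgeR adjusted p = 0.385). It was 0.31 in the RF-titled libraries and the log2 ratio 0.45 in the RE-titled pair. The read ratio of Sod2 to Sod1 was 0.912, 0.835 and 0.966 in the knockout-labelled libraries and 1.31, 1.27 and 1.46 in the heterozygous-labelled ones. The ratio was below 1 in every knockout-labelled library and above 1 in every heterozygous-labelled one. Sod1 lies on chromosome 16 from 90220754 to 90226329 (plus strand).

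Gpx1, the glutathione peroxidase that reduces soluble hydrogen peroxide, had 280, 363 and 341 CPM in the knockout-labelled libraries. It had 242, 241 and 238 CPM in the heterozygous-labelled ones, a coefficient of variation of 0.873% against 13.1% among the knockout-labelled. The groups did not overlap. This gave a log2 fold change of 0.45 (SE 0.141, 95% interval 0.12 to 0.78, edgeR adjusted p = 0.218), with 0.41 in the RF-titled libraries and a log2 ratio of 0.52 in the RE-titled pair. Gpx1 lies on chromosome 9 from 108338903 to 108340343 (plus strand).

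Gpx4, which reduces lipid peroxides inside membranes and guards against ferroptosis, had the highest level per transcript length. It had 1452, 1779 and 1654 CPM in the knockout-labelled libraries and 1139, 1098 and 952 CPM in the heterozygous-labelled ones. The groups did not overlap. Its log2 fold change of 0.62 was the highest of the 10 (SE 0.159, 95% interval 0.24 to 0.99, edgeR adjusted p = 0.126; DESeq2 adjusted p = 0.00337). It was 0.53 in the RF-titled libraries and the log2 ratio was 0.80 in the RE-titled pair. Gpx4 lies on chromosome 10 from 80047166 to 80056439 (plus strand). The cytosolic, mitochondrial and nuclear forms of Gpx4 are made from this 1 gene and were counted together. A processed pseudogene, Gpx4-ps2, is annotated in the mouse genome, and whether it took reads from Gpx4 was not tested.

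Cat and Sod3, which belong to neither class, overlapped between the groups. Catalase, the peroxisomal enzyme that splits hydrogen peroxide without a cofactor to recharge, had 847, 899 and 1507 CPM in the knockout-labelled libraries and 971, 972 and 1035 CPM in the heterozygous-labelled ones. A single library, knockout-labelled 3, decided the sign: the log2 fold change was 0.13 (SE 0.239, edgeR adjusted p = 0.933) with it and -0.19 without it. Sod3, the secreted dismutase, had 182, 195 and 244 CPM in the knockout-labelled libraries and 218, 207 and 249 CPM in the heterozygous-labelled ones (log2 fold change -0.12, 95% interval -0.49 to 0.25, edgeR adjusted p = 0.895).

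**Figure D2:**
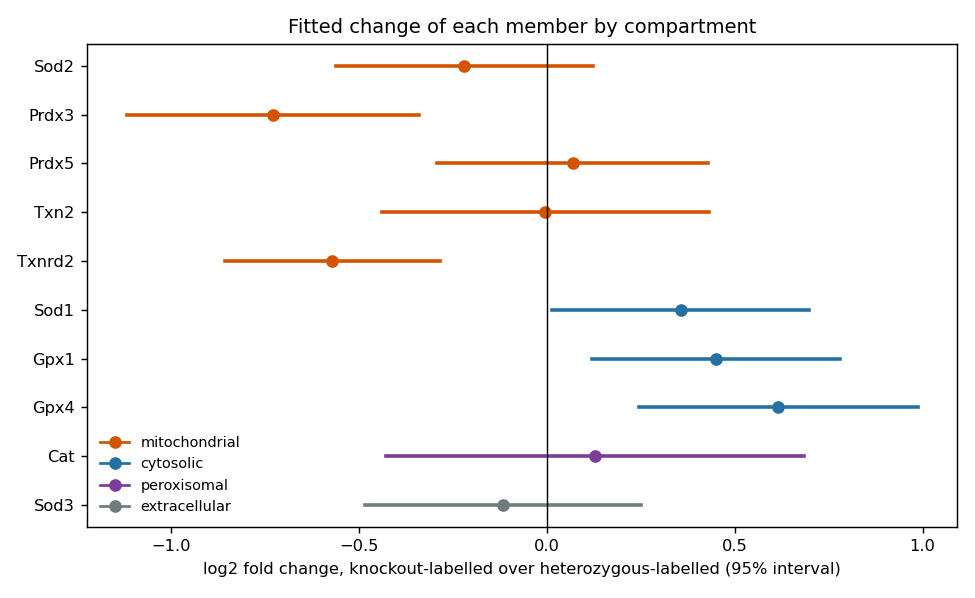
Log2 fold change of each gene, knockout-labelled over heterozygous-labelled, from edgeR (point) with its 95% interval (line), coloured by compartment. The intervals of Prdx3 and Txnrd2 lie below 0, those of Sod1, Gpx1 and Gpx4 lie above 0, and the other 5 include 0. The intervals are not adjusted for the number of genes tested, and no member passed an adjusted p of 0.05 in this fit.

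Ratios within a library do not depend on how libraries are scaled. The 5 mitochondrial members together had 0.493, 0.477 and 0.552 reads per read of the 3 cytosolic members in knockout-labelled 1, 2 and 3, and 0.802, 0.757 and 0.962 in heterozygous-labelled 1, 2 and 3. The highest knockout-labelled ratio was below the lowest heterozygous-labelled one. The difference between the classes in mean log2 CPM, which weights each gene equally, averaged -1.96 ± 0.0920 in the knockout-labelled libraries and -1.20 ± 0.131 in the heterozygous-labelled ones (SD, n = 3 each). It was lower by 0.74 in the RF-titled libraries (2 against 2), and stood at -1.86 and -1.05 in the RE-titled knockout-labelled and heterozygous-labelled library. Prdx3 reads per Sod1 read were 0.182, 0.186 and 0.225 in the knockout-labelled libraries and 0.397, 0.382 and 0.485 in the heterozygous-labelled ones. No p is given for these ratios, since the members were chosen with results of these data known. By log2 fold change Prdx3 and Txnrd2 were the lowest of the mitochondrial members. In mean CPM, which weighs in the ratio of summed reads, Sod2, Prdx3 and Txnrd2 stood at 636, 139 and 34.0 in the knockout-labelled libraries and at 740, 231 and 50.5 in the heterozygous-labelled ones, so Txnrd2 adds little to that ratio. Summed CPM of the mitochondrial members overlapped between the groups, at 1166, 1386 and 1493 in knockout-labelled and 1591, 1412 and 1647 in heterozygous-labelled libraries. The cytosolic sums did not overlap, at 2367, 2909 and 2707 CPM in knockout-labelled and 1984, 1865 and 1712 CPM in heterozygous-labelled libraries. Gpx4 had the largest share of the cytosolic sum, with means of 1628 and 1063 CPM in that order.

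**Figure D3:**
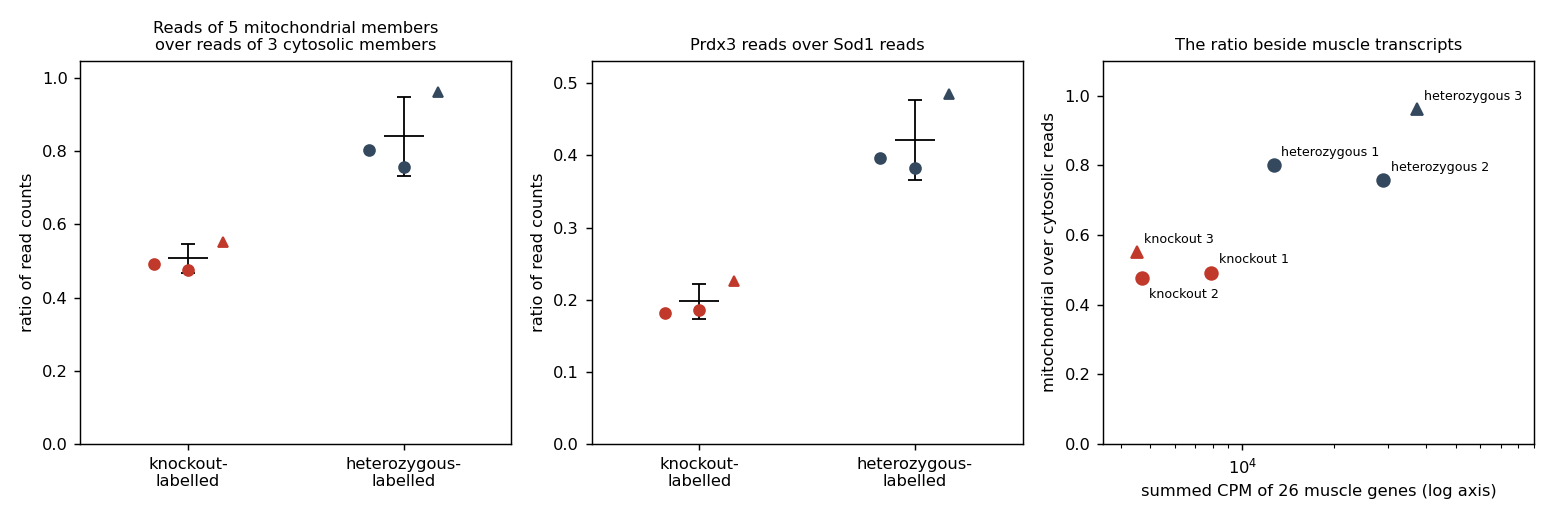
Left and centre, the ratio of reads of the mitochondrial to the cytosolic members and of Prdx3 to Sod1 (vertical axes from 0) by library, with mean and SD; right, the first ratio against summed CPM of 26 muscle genes on a log axis. Red marks knockout-labelled and dark blue heterozygous-labelled libraries. The ratio is 0.493 in knockout-labelled 1 and 0.802 in heterozygous-labelled 1. This is the pair across the groups with the closest muscle sums, which still differ, at 7918 and 12645 CPM. Muscle content and genotype cannot be told apart here.

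Skeletal muscle transcripts were lower in every knockout-labelled library, as these ratios were. Muscle genes differed least between knockout-labelled 1 (7918 CPM) and heterozygous-labelled 1 (12645 CPM), where Prdx3 stood at 116 and 239 CPM and Gpx4 at 1452 and 1139 CPM. In this pair Sod1 lay closer together, at 635 and 603 CPM, and Gpx1 was at 280 and 242 CPM. Among the other mitochondrial members Sod2 was at 579 and 791 CPM, Txnrd2 at 33.8 and 53.2, Prdx5 at 224 and 249 and Txn2 at 213 and 257. In a fit with the mean log2 CPM of the muscle genes as a covariate, the log2 fold changes were -0.96 for Prdx3, -0.75 for Txnrd2 and -0.45 for Sod2. In that fit they were 0.0032 for Sod1, 0.24 for Gpx1 and 0.25 for Gpx4, and no gene of the table had an adjusted p under 0.05, with 260 at an unadjusted p under 0.05. The muscle score ran from 6.89 to 7.65 in the knockout-labelled libraries and from 8.32 to 9.94 in the heterozygous-labelled ones, so its part and that of genotype cannot be told apart. This limit holds for every value given with the muscle covariate or muscle score. When genes were split into 5 equal classes by transcript length, Prdx3, Prdx5, Sod1, Gpx1 and Gpx4 were all in the shortest class, whose median log2 fold change was 0.083. Among 5 classes by GC content, the median log2 fold change was -0.00566 in the class of Prdx3 and 0.072 in that of Prdx5, Gpx1 and Gpx4. Sod2 was the only member in the longest class (median -0.059) and in the class of lowest GC content (median -0.036).

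Levels per kilobase of the principal transcript gave nearly the same order in both groups, apart from Prdx3, Txn2 and Sod2. Gpx4 led with 1698 ± 172 CPM per kb in the knockout-labelled libraries and 1108 ± 102 in the heterozygous-labelled ones. Sod1 followed with 1099 ± 103 CPM per kb in knockout-labelled and 859 ± 71.2 in heterozygous-labelled libraries. Cat, Gpx1 and Prdx5 came next in both groups, at 415 ± 140, 306 ± 40.1 and 216 ± 33.1 CPM per kb in the knockout-labelled libraries and at 380 ± 14.1, 224 ± 1.96 and 206 ± 13.4 in the heterozygous-labelled ones. Prdx3 was next after Prdx5 in the heterozygous-labelled libraries, at 157 ± 18.3 CPM per kb, but in the knockout-labelled ones, at 94.4 ± 15.2, it came after Txn2 (130 ± 25.9) and Sod2 (108 ± 9.25). In the heterozygous-labelled libraries Txn2 stood at 131 ± 17.8 and Sod2 at 126 ± 10.9 CPM per kb. In the knockout-labelled libraries the mean ± SD ranges of Txn2 and Sod2 overlapped, as did those of Txn2 and Prdx3, of Sod2 and Prdx3 and of Cat and Gpx1. In the heterozygous-labelled ones those of Prdx3 and Txn2 and of Txn2 and Sod2 overlapped. Sod3 had 55.4 ± 8.75 CPM per kb in knockout-labelled and 60.1 ± 5.79 in heterozygous-labelled libraries. Txnrd2 came last with 11.8 ± 0.371 in knockout-labelled and 17.6 ± 1.55 in heterozygous-labelled ones (SD, n = 3 in each group throughout). These levels depend on the transcript taken, in particular for Sod2, whose annotated transcript of 5861 bases is long.

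The other thioredoxin and peroxiredoxin genes, most of them cytosolic, were mostly higher in the knockout-labelled libraries without passing the threshold. Of 12 tested, 9 lay above 0 in log2 fold change (median 0.30), and 4 had all knockout-labelled libraries above all others, where 8.11% of all genes did. None was called by edgeR on genotype alone, 4 had an unadjusted p under 0.05 (12.1% of all genes), DESeq2 called 2 (5.80% of all genes) and limma-voom 1 (1.46%). With the prefix in its model edgeR called 1 (2.34% of all genes). Srxn1, the sulfiredoxin that revives overoxidised peroxiredoxins, had 207, 148 and 108 CPM in the knockout-labelled libraries and 71.2, 76.3 and 53.1 CPM in the heterozygous-labelled ones. Every knockout-labelled value was the higher (log2 fold change 1.21, SE 0.257, edgeR adjusted p = 0.0804; adjusted p = 0.00952 with the prefix in the model and 0.000558 by DESeq2). With single libraries left out its edgeR adjusted p ran from 0.0454, without knockout-labelled 3, to 0.272, and of these 6 fits only that one passed. Txn1, the cytosolic thioredoxin, had 144, 172 and 169 CPM against 115, 103 and 111 CPM in the heterozygous-labelled libraries (log2 fold change 0.56, edgeR adjusted p = 0.0870). Its reductase Txnrd1 was at 0.41, and the cytosolic peroxiredoxins Prdx1, Prdx2 and Prdx6 were at 0.46, 0.29 and 0.48 on the log2 fold change scale, all with edgeR adjusted p between 0.211 and 0.625. With the muscle covariate the log2 fold change was 1.36 for Srxn1 and 0.34 for Txn1.

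NADPH, which powers both the thioredoxin and the glutathione branch, is made in mitochondria by Nnt and Idh2. Of 13 genes of NADPH supply none was called by edgeR on genotype alone, and the median log2 fold change was -0.090. An unadjusted p under 0.05 was found for 4 (12.1% of all genes), while DESeq2 called 3 (5.80% of all genes) and limma-voom 2 (1.46%). With the prefix in its model edgeR called 2 (2.34% of all genes), Idh2 (adjusted p = 0.0185) and Nadk2 (adjusted p = 0.0241). The groups did not overlap in 6 of the 13, 3 in each direction, against 8.11% of all genes above and 9.89% below. Idh2, the mitochondrial NADP-dependent isocitrate dehydrogenase, had 75.8, 121 and 174 CPM in the knockout-labelled libraries and 264, 365 and 433 CPM in the heterozygous-labelled ones (log2 fold change -1.52, SE 0.324, edgeR adjusted p = 0.0805). Its groups lay apart, and the value was -1.29 with the muscle covariate. Nadk2, the mitochondrial NAD kinase, had 45.8, 44.8 and 32.5 CPM against 78.7, 67.2 and 75.2 CPM in the heterozygous-labelled libraries (log2 fold change -0.85, edgeR adjusted p = 0.0746).

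Nnt, the transhydrogenase of the inner membrane, had 12.0, 12.2 and 11.3 CPM in the knockout-labelled libraries and 20.1, 51.0 and 59.1 CPM in the heterozygous-labelled ones. The groups did not overlap. The log2 fold change was -1.88 (SE 0.372, edgeR adjusted p = 0.0784) and -0.023 with the muscle covariate. The muscle score did not overlap between the groups, so that fit cannot separate muscle content from genotype for Nnt. With single libraries left out the edgeR adjusted p of Nnt ran from 0.0112, without heterozygous-labelled 1 (log2 fold change -2.22), to 0.272. It was 0.303 in the RF-titled libraries and 0.187 by limma-voom, against 2.66e-05 by DESeq2. The substrain C57BL/6J is known to carry a deletion within Nnt, and the strain label does not give the substrain.

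**Figure D4:**
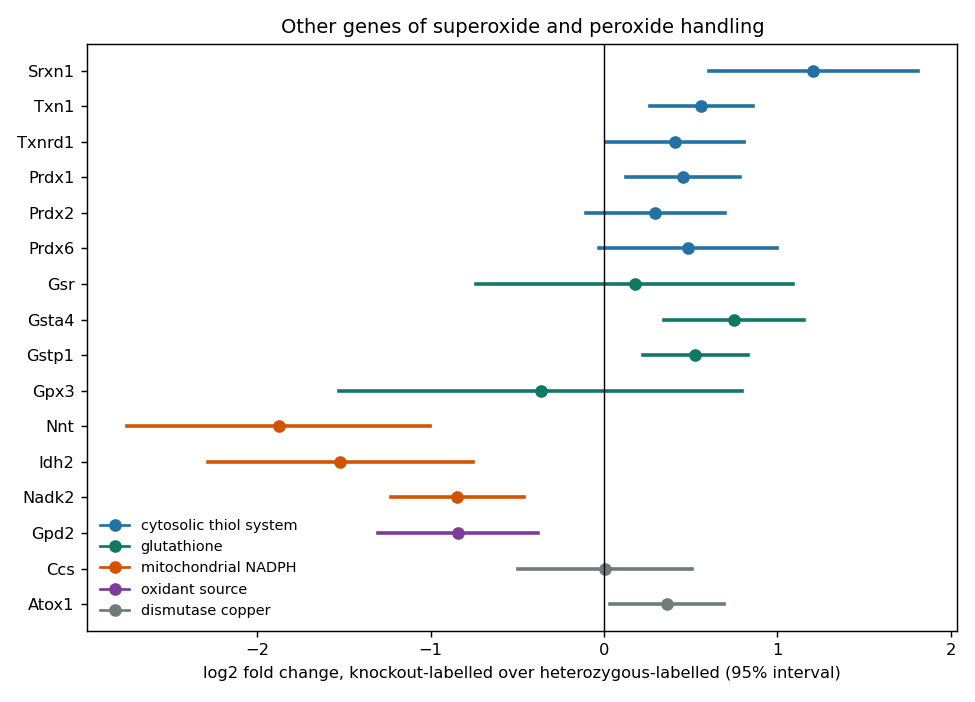
Log2 fold change, knockout-labelled over heterozygous-labelled, from edgeR (point) with its 95% interval (line) for further genes of superoxide and peroxide handling, coloured by role. Srxn1 at 1.21 and Nnt at -1.88 are the extremes, and none of these genes passed an adjusted p of 0.05 in this fit on genotype alone.

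In the glutathione system 13 of 20 genes lay above 0 in log2 fold change (median 0.20), and the groups did not overlap in 5 with the knockout-labelled libraries above (8.11% of all genes) and in 1 with them below (9.89%). No gene was called by edgeR, 4 had an unadjusted p under 0.05 against 12.1% of all genes, and DESeq2 called 3 against 5.80% and limma-voom 0 against 1.46%. Gsta4, a transferase that clears lipid aldehydes, had 91.3, 108 and 110 CPM in the knockout-labelled libraries and 75.9, 53.3 and 54.7 CPM in the heterozygous-labelled ones (log2 fold change 0.75, edgeR adjusted p = 0.0900; 0.079 with the muscle covariate). With single libraries left out its edgeR adjusted p ran from 0.0350, without heterozygous-labelled 1, to 0.303. Gstp1, which has close copies that can share its reads, was at 0.53 (edgeR adjusted p = 0.104). Glutathione reductase, Gsr, which both glutathione peroxidases depend on, had 66.3, 66.5 and 22.2 CPM against 52.5, 45.9 and 38.8 CPM in the heterozygous-labelled libraries. Its groups overlapped, with knockout-labelled 3 the lowest of all 6 (log2 fold change 0.18, edgeR adjusted p = 0.945). The secreted peroxidase Gpx3 ranged widely, at 1554 ± 969 CPM in the knockout-labelled and 2003 ± 864 CPM in the heterozygous-labelled libraries (SD, n = 3 each; log2 fold change -0.37, edgeR adjusted p = 0.898).

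Genes that supply the dismutases, make oxidants or control the system gave no edgeR call on genotype alone. Of 8 dismutase partners 1 had an unadjusted p under 0.05, where 12.1% of all genes did: Atox1, a copper chaperone (log2 fold change 0.36, edgeR adjusted p = 0.347). Slc25a37, a mitochondrial iron importer, was at -0.33 (edgeR adjusted p = 0.795). Ccs, which loads copper into Sod1, stood at 41.7 ± 10.8 CPM in the knockout-labelled and 41.5 ± 5.42 CPM in the heterozygous-labelled libraries (SD, n = 3 each). Of 14 oxidant sources 1 had an unadjusted p under 0.05 (12.1% of all genes), Gpd2, the inner-membrane glycerol phosphate dehydrogenase, which leaks superoxide. Gpd2 had 780, 655 and 887 CPM in the knockout-labelled libraries and 1559, 1501 and 1109 CPM in the heterozygous-labelled ones (log2 fold change -0.84, edgeR adjusted p = 0.0926). Aox1, an aldehyde oxidase, was at 0.41 (edgeR adjusted p = 0.581). Of 12 regulators 1 had an unadjusted p under 0.05 (12.1% of all genes): Tfam, a mitochondrial DNA factor, at -0.39 (edgeR adjusted p = 0.344), followed by the coactivator Ppargc1b at -0.58 (edgeR adjusted p = 0.518). DESeq2 and limma-voom called none of the partners or regulators. With the prefix in its model edgeR called 1 regulator, where it called 2.34% of all genes: the coactivator Ppargc1a (log2 fold change -0.70, adjusted p = 0.0387, against 0.805 without the prefix). Gpd2 was called by DESeq2 (5.80% of all genes), by limma-voom (1.46%) and by edgeR in the RF-titled libraries (adjusted p = 0.0421).

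The other selenoproteins did not share a direction, as the 3 selenoprotein members did not. Of 17 tested, 9 were above 0, the median log2 fold change was 0.031, and the groups did not overlap in 3, all with the knockout-labelled libraries above, where 18.0% of all genes did not overlap and 8.11% were above. None was called by edgeR, DESeq2 or limma-voom, and 1 had an unadjusted p under 0.05, where 12.1% of all genes did. The 2 with the smallest p were Txnrd1, given above, and Sep15, a selenoprotein of the endoplasmic reticulum (log2 fold change 0.24, edgeR adjusted p = 0.513). Of 8 genes that make or insert selenocysteine, 6 were above 0, with a median of 0.12. None was called by any of the 3 tools and none had an unadjusted p under 0.05, against 12.1% of all genes. Eefsec, the elongation factor for selenocysteine, was at 0.34 (edgeR adjusted p = 0.618) and Sars, a seryl-tRNA synthetase, at 0.30 (edgeR adjusted p = 0.662).

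Other mitochondrial genes were read beside the matrix members. All 19 citrate cycle genes had log2 fold changes below 0, with a median of -0.71, and edgeR called 4: Idh3g (-1.16), Suclg2 (-1.60), Dld (-0.97) and Idh3b (-1.08), with adjusted p between 0.0367 and 0.0499, where 0.586% of all genes were called. DESeq2 called 11 (5.80% of all genes), limma-voom 9 (1.46%) and edgeR with the prefix in the model 9 (2.34%). In edgeR the number was 2 with RLE scaling, 2 with no robust estimation, 2 with muscle genes left out of library sizes and 0 with the muscle score. It was 7 by library size alone, with no filter and in the RF-titled libraries. It was 0 without knockout-labelled 1 or 2 or heterozygous-labelled 2 or 3, 7 without knockout-labelled 3 and 3 without heterozygous-labelled 1. Of 40 nuclear-encoded respiratory subunits, 24 were above 0 and 16 below, with a median of 0.12, no overlap in 2 with the knockout-labelled libraries above (8.11% of all genes) and in 11 with them below (9.89%), and 1 call, Ndufs1 (-1.31, edgeR adjusted p = 0.0254), which was lost in the same 4 leave-one-out fits and in the fit with the muscle score. In that last fit no gene of the table was called. Its log2 fold changes were -1.49 for Idh3g, -1.83 for Suclg2, -1.22 for Dld, -1.31 for Idh3b and -1.47 for Ndufs1. DESeq2 called 7 of the 40 (5.80% of all genes), limma-voom 4 (1.46%) and edgeR with the prefix in the model 4 (2.34%). The median of the mitochondrial defence members, -0.22, lay between these 2 medians. Prdx3 at -0.73 was close to the citrate cycle median and Prdx5 at 0.068 to the respiratory one. Ucp1, the uncoupling protein of brown fat, stood at 3910 ± 2065 CPM in the knockout-labelled libraries and 4384 ± 1246 CPM in the heterozygous-labelled ones (SD, n = 3 each; log2 fold change -0.16, edgeR adjusted p = 0.958).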

How the data were processed

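RNA was extracted from snap-frozen, pulverised brown fat, per the labels' protocols. The authors deposited raw read counts per gene symbol. Per the submitters' processing notes, mm10 was the build, and the tools were STAR 2.7.2b, Bowtie2 2.3.4.3, HTSeq, SAMtools 1.9, edgeR and Trim Galore, with no roles. The sources used here do not give the annotation or the strand setting. The 5 lines that name no gene (reads outside genes, ambiguous, with several alignments and the like) were left out of library sizes and tests; together they held 41.7% to 56.1% of each column. Groups follow the genotype labels, which name 3 mice each.

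All genes were fitted with edgeR 4.0.16 (R 4.3.3): TMM, filterByExpr (minimum count 10, minimum total 15), the robust quasi-likelihood test on genotype, and Benjamini-Hochberg adjustment over all genes at 0.05. CPM values are TMM-scaled, and log2 CPM used a prior count of 2. RE-pair log2 ratios had 0.5 CPM added. The fit was tested on simulated counts. Alternatives included limma 3.58.1 (voom) and DESeq2 1.42.0. Replicate pairs differed by more than sampling noise (chi-square over its degrees of freedom 41.8 to 135). Positions and transcript lengths came from GENCODE M21 on GRCm38, the assembly mm10 names, and 99.2% of tested genes had a length.

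The members, lists, classes and named-gene rule were chosen with earlier results of these data known. Genes named are all members, a fixed set of pathway genes, and per list up to 4 called genes or, with none called, the 2 with the smallest p. Elovl3, Ppargc1a and Trmt112 were named after their values were seen. 1 overlapping gene is not reported here.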

Additional observations from a re-analysis of the deposited data

How the results depend on the processing

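No paired analysis was possible because the library titles of the 2 groups share no number. The log2 fold changes of Prdx3, Txnrd2, Sod2, Sod3, Sod1, Gpx1 and Gpx4 kept their sign in all 18 alternatives run. Not all of these could change a sign: the adjusted p of 0.1 reused the main fold changes. The fit with no robust estimation gave the main class medians, -0.22 and 0.45. Sod1 was at only 0.0032 with the muscle score. The count of members called, 0, was 3 by DESeq2, 1 by limma-voom, 2 with the title prefix as a covariate, 2 at an adjusted p of 0.1, and 0 without any single library. Over all genes tested, 71 fell and 7 rose. These counts were 0 to 381 and 0 to 19 without single libraries, 244 and 67 with the prefix, 113 and 19 in the RF-titled libraries, 644 and 127 by DESeq2, 165 and 29 by limma-voom, 440 and 60 at 0.1, 0 and 0 with the muscle score, and 13 rose with no filter. Those that fell numbered 381 without heterozygous-labelled 1, 98 without knockout-labelled 3, 6 without heterozygous-labelled 3 and 0 without any of the other 3 libraries.

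With the muscle score the medians were -0.45 for mitochondrial and 0.24 for cytosolic members. With Sod2, Prdx3, Txn2 and Txnrd2 alone the mitochondrial median was -0.40. With Gpx1 and Gpx4 counted as mitochondrial it was -0.00478, and the class difference in mean log2 CPM was -0.42 where it had been -0.77.

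These log2 fold changes took the other sign. Prdx5 was at -0.027 and Slc25a37 at 0.094 with the muscle score, and Txn2 at 0.0031 with no filter. Cat was at -0.16 in the RF-titled libraries, -0.067 by limma-voom and -0.11 with the muscle score. Ccs was at -0.056 by library size alone, -0.052 in the RF-titled libraries, -0.077 by limma-voom and -0.28 with the muscle score. Without single libraries the ranges were -0.0052 to 0.19 for Prdx5, -0.16 to 0.14 for Txn2, -0.19 to 0.28 for Cat, -0.29 to 0.033 for Fam195a, -0.045 to 0.53 for Gsr, -0.99 to 0.013 for Gpx3, -0.16 to 0.21 for Ccs and -0.54 to 0.19 for Ucp1. The cause was not tested. With 3 libraries a group, edgeR's 95% interval for Prdx5 still allowed a log2 fold change from -0.29 to 0.43.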
